A study of Mus musculus with 8 samples.

Results

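The kinesins are the motor proteins that walk along, or take apart, microtubules by burning ATP, and their genes were followed in mouse colonic organoids of WT and KO Reg3a genotype. The family was taken as every protein-coding gene of the deposited table whose symbol is Kif or Kifc with a number and an optional letter. This gave 42 genes of the 45777 in the table, 21949 of which are labelled protein-coding. Of the 42, 12 are known for their work in cell division (Kif2c, Kif4, Kif11, Kif14, Kif15, Kif18a, Kif18b, Kif20a, Kif20b, Kif22, Kif23 and Kifc1) and are called mitotic kinesins here. The other 30 were compared with them.

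Colonic organoids are epithelial cultures grown in Matrigel from crypts of the colon, and RNA sequencing measured their polyadenylated transcripts. In the KO group (4 libraries, replicates 5 to 8) Villin-Cre, which acts in the intestinal epithelium, deletes exons 2 to 4 of a floxed Reg3a gene, Reg3a encoding a secreted lectin of the gut. The WT group (4 libraries, replicates 13 to 16) carries the same floxed alleles, Reg3a fl/fl, so both groups share the floxed gene. All organoids came from male mice aged 9 weeks, had at most 15 passages, and were collected 3 days after passage with no treatment. The labels give both 1 mouse per genotype grown in 4 wells and 3 mice per genotype. The p-values may therefore measure only the spread between wells, and if the first statement holds, genotype and mouse cannot be told apart. Reg3a itself had 0 counts in all 8 libraries, so its count does not check the labels. Library totals ran from 37182098 to 49256171 counts.

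Kinesins divide the labour of microtubule motors. Transport kinesins carry vesicles, mitochondria and membrane proteins towards microtubule plus ends, kinesin-2 motors also carry cargo into cilia, and a few kinesins shorten microtubules instead of walking. Mitotic kinesins build the spindle, move and align chromosomes and complete cytokinesis, and their mRNAs peak late in the cell cycle. In the colon, dividing cells lie in the lower crypt, and cells stop dividing as they move up and differentiate. Many late cell cycle genes carry, close to the transcription start, a cell cycle genes homology region (CHR, letters TTTGAA), contacted by the MuvB complex, and upstream of it CCAAT boxes, contacted by NF-Y.

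The starts of 6 mitotic kinesins and 1 transport kinesin are printed because they show how these motifs lie in the family, from the arrangement in Kif11 to a start with neither. Each line holds the 120 bases before the start of the gene's transcript, 5′ to 3′ on the strand of the gene, from RefSeq on GRCm38.p6. Capitals mark CHR and CCAAT matches on either strand, so that TTCAAA and ATTGG are matches read on the opposite strand.
Kif11, chr19:37376262-37376381, plus strand: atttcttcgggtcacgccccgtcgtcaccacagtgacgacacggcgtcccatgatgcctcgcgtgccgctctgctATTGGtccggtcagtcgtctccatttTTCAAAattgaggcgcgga
Kif22, chr7:127042421-127042540, minus strand: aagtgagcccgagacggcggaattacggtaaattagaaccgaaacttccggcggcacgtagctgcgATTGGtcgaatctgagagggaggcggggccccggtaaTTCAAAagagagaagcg
Kif15, chr9:122950961-122951080, plus strand: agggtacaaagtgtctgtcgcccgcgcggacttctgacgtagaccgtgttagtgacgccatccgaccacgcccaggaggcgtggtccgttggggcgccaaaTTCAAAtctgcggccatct
Kif18b, chr11:102925125-102925244, minus strand: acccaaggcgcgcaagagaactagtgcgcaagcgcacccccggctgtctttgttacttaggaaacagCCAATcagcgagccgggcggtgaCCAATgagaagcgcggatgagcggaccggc
Kifc1, chr17:33890634-33890753, minus strand: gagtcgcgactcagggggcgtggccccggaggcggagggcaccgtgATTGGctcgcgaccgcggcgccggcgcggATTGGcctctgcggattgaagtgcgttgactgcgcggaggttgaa
Kif18a, chr2:109280618-109280737, plus strand: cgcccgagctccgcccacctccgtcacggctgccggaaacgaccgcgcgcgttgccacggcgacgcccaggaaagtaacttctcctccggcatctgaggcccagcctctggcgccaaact
Kif1c, chr11:70700428-70700547, plus strand: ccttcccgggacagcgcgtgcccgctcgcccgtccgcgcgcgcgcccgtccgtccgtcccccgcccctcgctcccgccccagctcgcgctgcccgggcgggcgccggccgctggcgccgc

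In Kif11 and Kif22 a CCAAT box stood upstream of a CHR, with the CHR beginning 19 and 17 bases before the start. Kif15 had a CHR at the same place as Kif11 and no CCAAT. In Kif18b and Kifc1 the printed bases show 2 CCAAT boxes each, and their CHR lay just after the start, at bases 4 to 9 and 2 to 7. Kif18a and Kif1c had neither motif in the window searched.

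The search used RefSeq windows from 250 bases before to 50 after the start, on both strands, for TTTGAA, for CCAAT, and for the E2F forms TTTGGCGC, TTTCCCGC, TTTGCCGC and TTTCGCGC. A window was at hand for 11 mitotic kinesins, all but Kif20a, and for 22 of the other 30. A gene with several windows was counted once. A CHR was present in 10 of the 11 mitotic kinesins (90.9%), with Kif18a the exception, and in 4 of the 22 other kinesins (18.2%). Over the 10197 tested protein-coding genes with a window the share was 14.7%, and over all 27025 genes with a window 20.2%. CCAAT was found in 7 of 11 mitotic kinesins, 9 of 22 others and 43.2% of the tested genes. Both motifs were present, in any order and spacing, in 7 of 11 mitotic kinesins, 3 of 22 others and 6.15% of the tested genes. In Kif14, counted among these, the CHR (-228 to -223) lay upstream of the CCAAT (-92 to -88). An E2F form was found in Kif15, where it adjoins the CHR, and in Kif18a, against 0 of 22 other kinesins and 4.65% of the tested genes.

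The windows of Kif14 and Kif2c start 1547 and 3852 bases inside the outermost RefSeq start of the gene, so they may not hold the start used most. Among the 9 mitotic kinesins whose window starts within 500 bases of the outermost start, 8 had a CHR. In the narrower window, from 100 bases before the start, 8 of 11 mitotic kinesins and 4 of 22 others kept a CHR, against 5.97% of the tested genes. The other kinesins with a CHR were Kif1a, Kif26b, Kif27 and Kifc5b. Of these, Kifc5b is a near copy of Kifc1, and the other 3 had under 100 counts in every library. A match is a description of the letters and does not show that a factor binds.

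**Figure D1:**
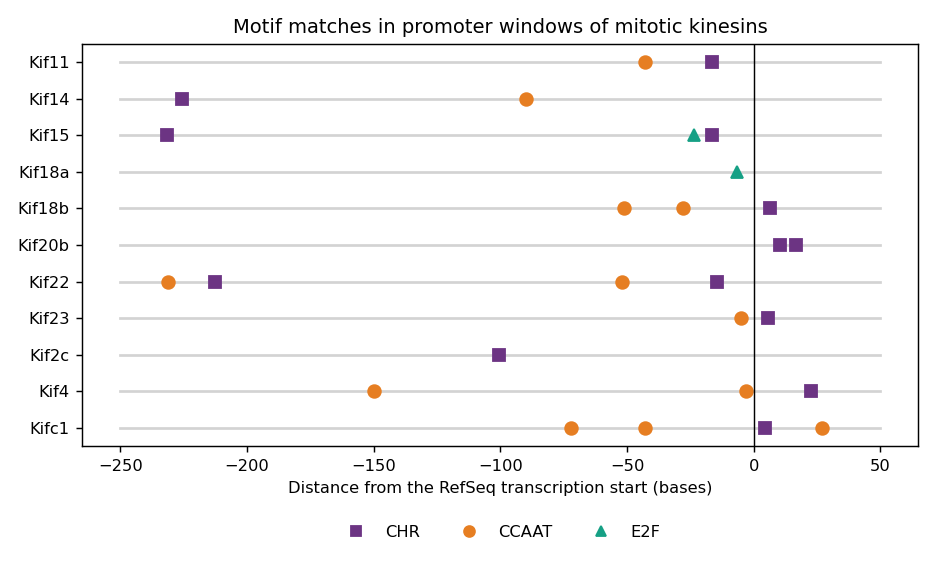
Positions of CHR (squares), CCAAT (circles) and E2F (triangles) matches, in bases from the RefSeq transcription start, for the 11 mitotic kinesins with a window. Kif11, Kif15 and Kif22 have a CHR shortly before the start, while those of Kif18b, Kif20b, Kif23, Kif4 and Kifc1 lie within 25 bases after it.

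Levels of different kinesins were compared as the authors' TPM, which is scaled to transcript length, as the mean of 8 libraries. The most abundant was Kif5b, the heavy chain of conventional kinesin, at 118 TPM, followed by Kif1c, a carrier of vesicles, at 104 TPM. The mitotic kinesins spanned 5.20 TPM (Kif14) to 56.5 TPM (Kif23), with Kif22 next to the top at 44.4 TPM. Kif13b, Kif1b and Kif2a lay between, at 35.2, 33.5 and 32.1 TPM. Mitotic kinesins made up 34.4% ± 1.42 (SD, n = 4) of all kinesin TPM in KO and 40.5% ± 1.3 (SD, n = 4) in WT, and the ranges, 33.0% to 36.3% and 39.3% to 42.3%, did not overlap.

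Few kinesins were silent. Kif2b, a relative of Kif2c, had 0 counts in every library. Kif26a, Kif28, Kif5a and Kif6 reached at most 8 counts in a library and failed the low-count filter, leaving 37 tested kinesins, 12 mitotic and 25 other. A further 7 tested kinesins had under 100 counts in every library: Kif12, Kif27, Kif7, Kif1a, Kif17, Kif5c and Kif26b. Among the scarce ones, Kif1a and Kif5a, best known from neurons, had 10 to 29 and at most 5 counts per library, while Kif1b and Kif5b, which also work in neurons, were abundant. Of the 9 neuron and glia markers, 3 had 0 counts, the glia genes Gfap, S100b and Sox10, and 1 passed the low-count filter. The 9 summed to 0 to 0.681 CPM in KO and 0.504 to 0.675 CPM in WT.

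**Figure D2:**
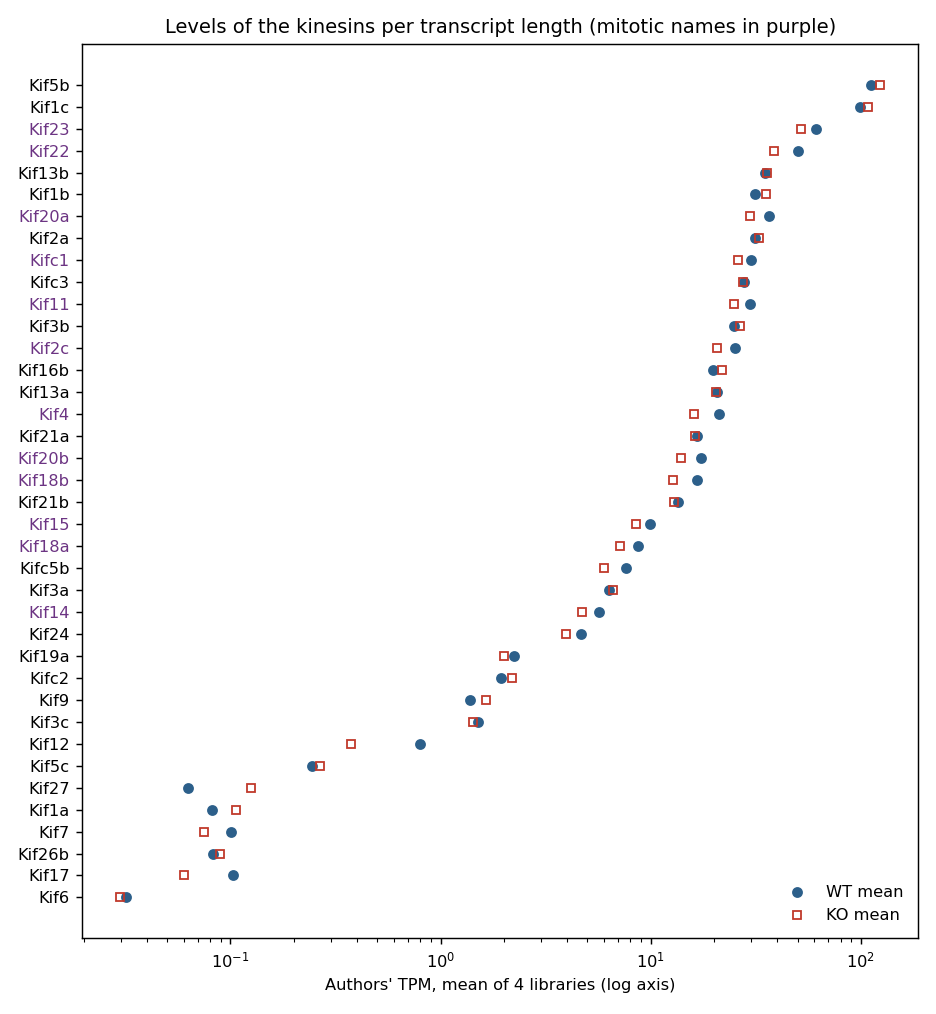
Mean authors' TPM of 4 libraries per genotype (log axis) for each kinesin drawn, WT as filled circles and KO as open squares, with mitotic names in purple. Kif5b and Kif1c lead, the mitotic points run from 4.72 TPM (Kif14 in KO) to 60.9 TPM (Kif23 in WT), and their KO squares lie to the left of their WT circles.

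The main question was how the kinesins differ with the Reg3a genotype. Mitotic kinesins were lower in KO organoids: 11 of 12 fell and 0 rose, at an edgeR adjusted p under 0.05 across all tested genes. In the background, 8.26% of the 14945 tested genes were lower and 7.63% higher. The 12 lay at 74.3% (Kif4) to 84.6% (Kifc1) of their WT level, with a median log2 fold change of -0.31 against -0.0012 over all tested genes. For 9 of the 12 every KO library was below every WT library, as for 10.3% of all tested genes. The decrease was modest and even: the largest log2 fold change was -0.43 and the smallest -0.24. These are bulk samples, so fewer dividing cells and less RNA per dividing cell cannot be told apart.

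Values below are CPM, counts scaled to library size with TMM factors, for replicates 5, 6, 7 and 8 of KO and 13, 14, 15 and 16 of WT in that order, and changes are log2 fold changes ± SE of KO against WT. The kinesins that build the bipolar spindle come first. Kif11 (chr19:37376382-37421863), kinesin-5 or Eg5, slides antiparallel microtubules apart to separate the spindle poles, and it stood at 58.6, 59.2, 64.2 and 59.0 CPM in the KO libraries and 78.6, 69.0, 78.7 and 66.2 CPM in the WT libraries. All KO values were lower than all WT values, WT replicates 14 and 16 lay below 13 and 15, and Kif11 fell by 0.28 ± 0.06 (edgeR adjusted p = 0.00713). Kif15 (chr9:122951081-123018733), the kinesin-12 that backs up Kif11, stood at 17.5, 23.1, 21.4 and 20.0 CPM in the KO libraries and 26.2, 24.7, 25.5 and 21.8 CPM in the WT libraries. KO replicate 6 was above WT replicate 16, so the groups overlapped, and the decrease passed narrowly (-0.26 ± 0.08, edgeR adjusted p = 0.0478). Kifc1 (chr17:33875664-33890633), a minus-end directed kinesin-14 that focuses spindle poles, stood at 30.4, 31.5, 28.4 and 30.2 CPM in the KO libraries and 35.2, 36.3, 35.5 and 35.5 CPM in the WT libraries. Its WT libraries lay within a CV of 1.27%, all above KO, and it fell by the smallest amount of the 12 (-0.24 ± 0.05, edgeR adjusted p = 0.00376). All 3 fell, with a median of -0.26.

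The next 5 are kinesins that work on chromosomes and their attachments, together with Kif18b, which acts on astral microtubules. They held the 3 largest decreases of the 12, that of Kif18b included. Of the 5, 4 fell, and the median of -0.42 is the value of Kif18b. Kif4 (chrX:100626065-100727271), a chromokinesin that also limits microtubule growth in the central spindle, stood at 36.1, 41.0, 37.4 and 35.1 CPM in the KO libraries and 50.2, 49.4, 52.7 and 49.0 CPM in the WT libraries. Its highest KO library was well below its lowest WT library, and it had the largest decrease of the 12 (-0.43 ± 0.05, edgeR adjusted p = 0.000186). Kif22 (chr7:127027729-127042467), the chromokinesin Kid, which pushes chromosome arms towards the equator, stood at 41.4, 41.9, 38.8 and 37.2 CPM in the KO libraries and 56.9, 55.0, 49.9 and 51.4 CPM in the WT libraries. The groups did not overlap (-0.42 ± 0.06, edgeR adjusted p = 0.000275). Kif18b (chr11:102905518-102925134), which shortens astral microtubules, stood at 22.8, 21.6, 20.5 and 21.0 CPM in the KO libraries and 29.2, 28.7, 27.5 and 29.3 CPM in the WT libraries. The gap between genotypes exceeded the range within either one, and this gene had the smallest adjusted p of the family (-0.42 ± 0.05, edgeR adjusted p = 0.000172).

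Kif2c (chr4:117159633-117182624), the microtubule depolymeriser MCAK that corrects wrong attachments at kinetochores, stood at 28.7, 29.3, 28.9 and 30.7 CPM in the KO libraries and 36.3, 36.2, 36.4 and 36.9 CPM in the WT libraries. The WT libraries were nearly equal, with a CV of 0.896%, and all KO libraries were lower (-0.31 ± 0.05, edgeR adjusted p = 0.000501). Kif18a (chr2:109280738-109341749), which dampens the swings of chromosomes at the equator, stood at 13.0, 11.3, 12.8 and 10.8 CPM in the KO libraries and 14.6, 12.3, 18.6 and 14.3 CPM in the WT libraries. WT replicate 14 lay among the KO values and WT replicate 15 far above them. The log2 fold change was close to that of the other mitotic kinesins but did not pass the test (-0.32 ± 0.11, edgeR adjusted p = 0.0658), while without WT replicate 14 its adjusted p was 0.0161. Kif18a is also the mitotic kinesin printed above with no CHR, but a single gene allows no comparison.

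The kinesins of the central spindle and of cytokinesis all fell, 4 of 4, with a median of -0.30. Kif23 (chr9:61917277-61946810), the MKLP1 subunit of centralspindlin, the most abundant of the 12 by TPM, stood at 89.4, 93.2, 82.9 and 86.8 CPM in the KO libraries and 112, 98.2, 109 and 102 CPM in the WT libraries. Its groups did not overlap, with WT replicate 14 closest to KO replicate 6 (-0.26 ± 0.05, edgeR adjusted p = 0.00484). Kif20a, MKLP2, which carries the chromosomal passenger complex to the midzone, stood at 53.2, 55.2, 49.7 and 49.3 CPM in the KO libraries and 67.2, 62.1, 62.9 and 66.7 CPM in the WT libraries. All KO libraries were below all WT libraries (-0.32 ± 0.05, edgeR adjusted p = 0.000945). Kif20b (chr19:34922335-34975750), which acts in the last steps of cytokinesis, stood at 37.0, 39.4, 40.8 and 36.6 CPM in the KO libraries and 53.7, 44.0, 55.0 and 42.7 CPM in the WT libraries. WT replicates 13 and 15 were high and 14 and 16 close to the KO range, without overlap (-0.35 ± 0.08, edgeR adjusted p = 0.0098). Kif14 (chr1:136466301-136555938), which recruits citron kinase to the midbody, stood at 17.9, 17.7, 18.9 and 17.2 CPM in the KO libraries and 23.9, 17.8, 23.9 and 21.8 CPM in the WT libraries. WT replicate 14 fell within the KO range, and the decrease was near the threshold (-0.29 ± 0.08, edgeR adjusted p = 0.0363).

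The calls of Kif14 and Kif15 were lost when most single libraries were left out, while the log2 fold changes with 1 library left out stayed negative, at -0.37 to -0.24 and -0.32 to -0.19. The adjusted p of Kif14 rose above 0.05 without any 1 of KO replicates 5, 6, 7 or 8 or WT replicates 13, 15 or 16 (0.0855, 0.0771, 0.0557, 0.106, 0.116, 0.076 and 0.0629). That of Kif15 did so without KO replicates 5, 7 or 8 or WT replicates 13, 14 or 15 (0.142, 0.0795, 0.132, 0.139, 0.0809 and 0.0787). Both calls were also lost with limma-voom (0.0599 for Kif14 and 0.0519 for Kif15) and without the low-count filter (0.0623 and 0.0867). The other 9 called mitotic kinesins passed under every alternative tried. Reads of Kif20a and Kif4 could be mixed with those of neighbours on the opposite strand, since they share 1271 exon bases with Cdc23 and 832 with Pdzd11, and use of strand in counting is not given. Neither neighbour passed the test (Cdc23 -0.10 ± 0.05, edgeR adjusted p = 0.211, and Pdzd11 -0.05 ± 0.06, edgeR adjusted p = 0.66).

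**Figure D3:**
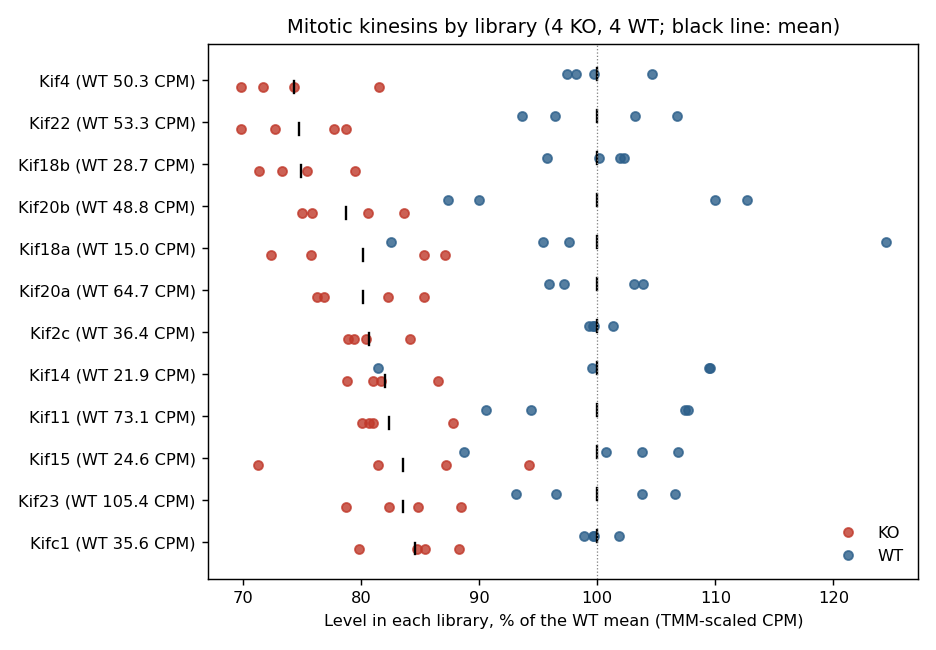
Level of each mitotic kinesin in every library as a percent of its WT mean (TMM-scaled CPM), KO in red and WT in blue, with black ticks at the means of 4 libraries. KO means lie between 74.3% and 84.6%, and the groups overlap in Kif14, Kif15 and Kif18a.

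The other kinesins had values on both sides of 0. Of the 25 tested, 2 fell (Kifc5b and Kif12), 0 rose, and 23 did not pass the test, of which 10 had negative and 13 positive log2 fold changes. The median was 0.02. This count of 2 in 25 is near the background share of lower genes. Without multiple-test adjustment 3 were higher and 3 lower at p under 0.05 in edgeR, and by adjusted p DESeq2 called 1 higher (Kif1c) and limma-voom 0. The groups did not overlap for Kifc5b and Kif19a, with KO below WT, as for 10.3% of all tested genes. Nor did they for Kif1c, with KO above WT, as for 9.91% of all tested genes. Both counts, 2 and 1 of 25, are below those shares.

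Kifc5b (chr17:26917091-26932579) stood at 7.43, 9.02, 7.93 and 7.32 CPM in the KO libraries and 9.54, 10.2, 9.62 and 11.8 CPM in the WT libraries, and the groups did not overlap (-0.37 ± 0.09, edgeR adjusted p = 0.0155). Its longest transcript is 95.9% identical to that of Kifc1 over 2375 aligned bases, so how reads were split between these genes is uncertain and the 2 decreases may not be separate. Without KO replicate 5 or 8 its adjusted p was 0.0553 or 0.0595. Kif12 (chr4:63157948-63172145), a kinesin-12 like Kif15, had 13 to 48 counts per library and stood at 0.307, 0.784, 0.485 and 0.430 CPM in the KO libraries and 0.767, 0.848, 1.02 and 1.16 CPM in the WT libraries. The groups overlapped (-0.90 ± 0.28, edgeR adjusted p = 0.0464), and the call was lost without KO replicates 5, 7 or 8 or any WT replicate, where the adjusted p was 0.0614 to 0.13.

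The most abundant other kinesins had small fold changes, and intervals given for them are 95% intervals of the log2 fold change, from its SE. Kif5b, which moves mitochondria, lysosomes and many vesicles, stood at 367, 351, 402 and 374 CPM in the KO libraries and 352, 284, 403 and 329.8 CPM in the WT libraries. WT replicate 14 was below every other library, the groups overlapped, and the test was not passed (0.13 ± 0.08, edgeR adjusted p = 0.349, interval -0.04 to 0.29). Kif1c (chr11:70700396-70731970) stood at 369, 357, 371 and 372 CPM in the KO libraries and 345, 326, 346 and 350.4 CPM in the WT libraries. Every KO library was above every WT library, by a small margin (0.10 ± 0.04, edgeR adjusted p = 0.0775, interval 0.03 to 0.18), and DESeq2 gave an adjusted p of 0.0275.

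Kif13b (chr14:64652492-64809618), a kinesin-3 that carries membrane receptors and polarity proteins, stood at 153, 155, 165 and 160.1 CPM in the KO libraries and 164, 145, 158 and 168 CPM in the WT libraries. The groups overlapped almost fully (-0.00099 ± 0.05, edgeR adjusted p = 0.994, interval -0.10 to 0.09). Kif1b (chr4:149176319-149307773), a carrier of mitochondria and vesicle precursors, stood at 178, 158, 189 and 177 CPM in the KO libraries and 172, 131, 169 and 165 CPM in the WT libraries. WT replicate 14 was far below its group, and the groups overlapped (0.14 ± 0.08, edgeR adjusted p = 0.252, interval -0.01 to 0.29). Kif2a (chr13:106958996-107022355), the close relative of Kif2c that depolymerises microtubules also in cells that do not divide, stood at 60.0, 60.4, 59.5 and 60.3 CPM in the KO libraries and 61.3, 56.9, 61.3 and 55.0 CPM in the WT libraries. The KO libraries lay inside the WT range (0.04 ± 0.05, edgeR adjusted p = 0.687, interval -0.06 to 0.13). For these 5 carriers and depolymerisers the intervals reach no lower than -0.10, above the fitted log2 fold change of every mitotic kinesin. The same interval for Kif15, a mitotic kinesin, reaches up to -0.10, and differences between genes were not tested.

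The kinesins of cilia and centrioles gave no call. The kinesin-2 subunits had values of 0.02 ± 0.06 (Kif3a), 0.06 ± 0.05 (Kif3b) and -0.10 ± 0.10 (Kif3c). Kif17, also a kinesin-2, had 0 to 17 counts per library and read -0.80 ± 0.87, edgeR adjusted p = 0.609. Kif24, a kinesin-13 that restrains cilium growth at the mother centriole, had a KO level of 12.1 ± 0.697 CPM and a WT level of 13.8 ± 1.24 CPM (SD, n = 4), with a log2 fold change of -0.19 ± 0.08, edgeR adjusted p = 0.122, and without WT replicate 14 its adjusted p was 0.0346. Kif19a, which shortens cilia, had a KO level of 3.48 ± 0.0954 CPM and a WT level of 4.01 ± 0.408 CPM (SD, n = 4), without overlap but with -0.21 ± 0.11, edgeR adjusted p = 0.229. Kif7, the Hedgehog regulator at the cilium tip, and its relative Kif27 had at most 16 and 31 counts per library, and Kif27 read 0.94 ± 0.36, edgeR adjusted p = 0.1. Of ciliated cell markers 1 of the 5 in the table passed the low-count filter, with a summed level of 0.449 to 0.640 CPM in KO and 0.312 to 0.787 CPM in WT.

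Mitotic members and their closest relatives could be set side by side in the families that hold both, though no difference between relatives was tested. All tested relatives are given, as log2 fold changes ± SE or, for kinesin-3, by their median. In kinesin-13, Kif2c was -0.31 ± 0.05, Kif2a 0.04 ± 0.05 and Kif24 -0.19 ± 0.08. In kinesin-4, Kif4 was -0.43 ± 0.05, while Kif21a and Kif21b, which slow microtubule growth in other settings, were -0.03 ± 0.08 and -0.10 ± 0.06. The scarce kinesin-4 members Kif7 and Kif27 were -0.42 ± 0.36 and 0.94 ± 0.36. In kinesin-3, Kif14 was -0.29 ± 0.08, and the 6 other tested members had a median of 0.12 with 0 called. In kinesin-8, Kif18a was -0.32 ± 0.11, Kif18b -0.42 ± 0.05 and Kif19a -0.21 ± 0.11. In kinesin-12, Kif15 was -0.26 ± 0.08 and Kif12, also called lower, -0.90 ± 0.28. In kinesin-14, Kifc1 was -0.24 ± 0.05 and its near copy Kifc5b, also called lower, -0.37 ± 0.09. The other kinesin-14 members were Kifc3, a motor of epithelial junctions, at -0.03 ± 0.04 and Kifc2 at 0.26 ± 0.16.

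**Figure D4:**
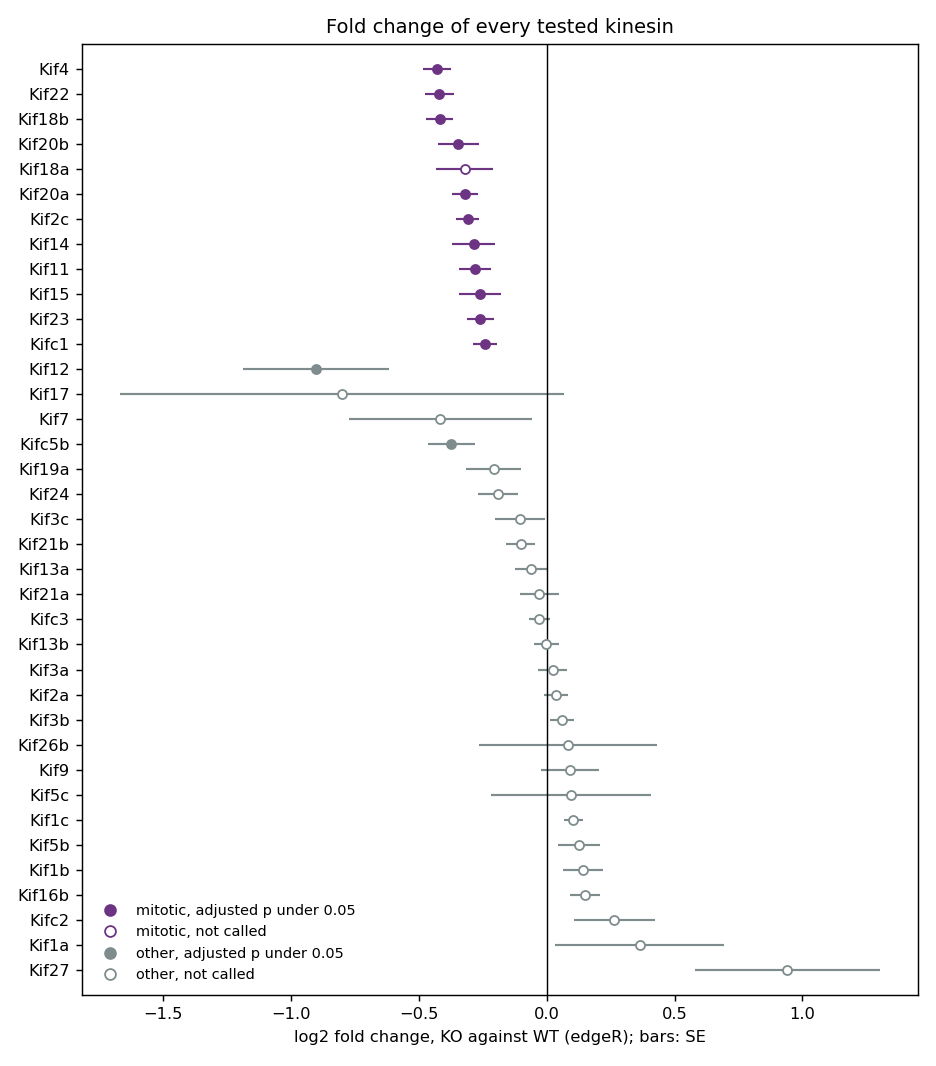
Log2 fold change of KO against WT for each of the 37 tested kinesins, with bars of 1 SE, mitotic in purple and other in grey, filled where the edgeR adjusted p was under 0.05. The mitotic points lie between -0.43 and -0.24, and the other kinesins lie on both sides of 0, with wide bars for those of few counts.

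Summed over the 12 genes, mitotic kinesins came to 447 ± 12.7 CPM (SD, n = 4) in KO and 558 ± 26.1 CPM in WT, with ranges of 434 to 465 and 534 to 584. The 30 other kinesins had sums of 1595 ± 54.3 CPM (KO) and 1525 ± 109.7 CPM (WT), again over 4 libraries each, with overlapping ranges. WT replicate 14 was the lowest WT library for 14 of the 25 other tested kinesins and for 5 of the 12 mitotic ones. Within KO, replicate 6 was the highest library for 6 mitotic kinesins and replicate 8 the lowest for 6.

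Markers of proliferation were lower as well, where 8.26% of all tested genes were lower and 7.63% higher. Of 9 proliferation markers 8 fell, all but Pcna, with a median of -0.32, among them the replication licensing genes Mcm5 (-0.37 ± 0.05, edgeR adjusted p = 0.000132) and Mcm3 (-0.36 ± 0.04, edgeR adjusted p = 0.00016). Their summed level was 1024 to 1075 CPM in KO and 1215 to 1361 CPM in WT. Per 100 CPM of these markers, mitotic kinesins came to 42.5 ± 0.872 CPM (SD, n = 4) in KO and 43.0 ± 0.943 CPM in WT. The ranges of this ratio, 41.4 to 43.3 and 41.7 to 43.9, overlapped, so the mitotic kinesins were about as far below WT as the markers were.

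**Figure D5:**
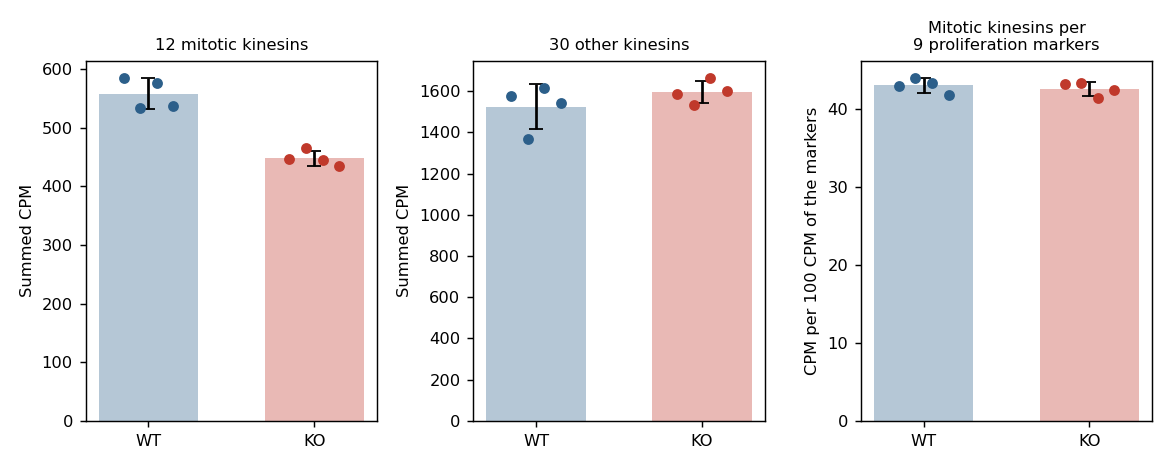
Summed CPM of the 12 mitotic kinesins, of the 30 other kinesins, and mitotic kinesin CPM per 100 CPM of 9 proliferation markers, with a point per library, bars at the mean and error bars of 1 SD (n = 4). The genotypes are apart in the first panel (447 against 558 CPM) and overlap in the others.

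The partners that mitotic kinesins work with also fell: 23 of 24 were lower and 0 higher, with a median of -0.33. Only Numa1, a spindle pole protein, did not pass. Of all tested genes, 8.26% were lower and 7.63% higher. Aurkb and Cdca8, of the chromosomal passenger complex that Kif20a carries, were -0.55 ± 0.06, edgeR adjusted p = 3.46e-05 and -0.36 ± 0.05, edgeR adjusted p = 0.000378. Tacc3, which stabilises spindle fibres, was -0.36 ± 0.05, edgeR adjusted p = 0.000174, and Plk1, the kinase that controls the central spindle, -0.33 ± 0.05, edgeR adjusted p = 0.000437. Cenpe, the kinetochore kinesin-7 whose symbol is outside the rule for the family, stood at 58.7, 56.4, 59.3 and 55.7 CPM in the KO libraries and 82.6, 63.2, 76.2 and 73.5 CPM in the WT libraries. Its groups did not overlap (-0.36 ± 0.07, edgeR adjusted p = 0.00291). A CHR was present in 13 of the 21 partners with a window.

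Regulators and tubulins are likewise read against the shares over all tested genes, 8.26% lower and 7.63% higher. Among 18 regulators of G2/M transcription 6 fell and 0 rose, with a median of -0.12. They included Mybl2 (-0.32 ± 0.05, edgeR adjusted p = 0.00154) and Foxm1 (-0.29 ± 0.06, edgeR adjusted p = 0.00713), activators of late cell cycle genes, the cell cycle repressor E2f8 (-0.30 ± 0.06, edgeR adjusted p = 0.00354) and Nfya (-0.22 ± 0.05, edgeR adjusted p = 0.00833), the NF-Y subunit that reads CCAAT. Of 11 tested tubulins 4 fell and 0 rose, with a median of -0.09. Tubb5 and Tuba1b were -0.25 ± 0.04, edgeR adjusted p = 0.00115 and -0.21 ± 0.04, edgeR adjusted p = 0.00165, and Tubb6 was -0.64 ± 0.08, edgeR adjusted p = 0.000183. The fourth was Tubb4a, whose groups overlapped (-0.53 ± 0.14, edgeR adjusted p = 0.0211) and whose call was lost without KO replicates 5, 6 or 8 or WT replicates 13 or 16 (adjusted p of 0.0559 to 0.072). The most abundant tubulin of the list, Tubb4b at 903 TPM, did not pass (-0.05 ± 0.04, edgeR adjusted p = 0.401).

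Calls in the transport machinery are read against the shares over all tested genes, 8.26% lower and 7.63% higher, and were near or below them. Of 18 tested kinesin light chains and cargo adaptors 1 rose and 1 fell, with a median of 0.04. Trak2, which links Kif5 motors to mitochondria, was higher (0.28 ± 0.06, edgeR adjusted p = 0.00428), and Klc1, a light chain of conventional kinesin, was lower (-0.22 ± 0.05, edgeR adjusted p = 0.00664). Of 25 tested genes of cytoplasmic dynein, the motor towards minus ends, and dynactin, 1 fell, Nde1 (-0.31 ± 0.05, edgeR adjusted p = 0.000759), a dynein regulator that also acts in mitosis. The median there was -0.0057. In the list of intraflagellar transport and Hedgehog genes 0 of 18 tested passed in the main edgeR test, with a median of 0.0081. Ift52 was 0.13 ± 0.05, edgeR adjusted p = 0.107 and Ift46 -0.02 ± 0.05, edgeR adjusted p = 0.86. Without WT replicate 14 Ift52 was called higher (edgeR adjusted p = 0.0271).

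Markers of cell types moved with the genotype too, and their part in the kinesin result, like that of proliferation, was not tested. The shares over all tested genes were 8.26% lower and 7.63% higher. All 8 epithelium markers were tested, with 2 higher, 0 lower and summed levels of 10513 to 11128 CPM in KO and 10123 to 10900 CPM in WT. Absorptive colonocyte markers had 6 of 8 higher and 1 lower, with summed levels of 5281 to 5578 CPM in KO and 3125 to 3699 CPM in WT. Crypt stem cell markers had 4 of 7 tested lower, among them Lgr5 (-0.49 ± 0.05, edgeR adjusted p = 5.99e-05), with summed levels of 532 to 557 CPM in KO and 553 to 601 CPM in WT. Goblet cell markers had 5 of 8 lower (113 to 143 CPM in KO, 158 to 213 in WT), enteroendocrine markers 3 of 8 lower (19.5 to 28.0 CPM in KO, 28.0 to 41.0 in WT), and Avil, the 1 tested tuft marker, was lower (-0.91 ± 0.28, edgeR adjusted p = 0.0441). Fibroblast, endothelium, and neuron and glia markers each summed to under 2 CPM in every library. Immune markers summed to 28.8 to 44.3 CPM in KO and 30.7 to 43.3 CPM in WT, and Cd3e was at 0, while Cd68, a macrophage gene, was lower (-0.31 ± 0.09, edgeR adjusted p = 0.0399) and Itgam, the other tested immune marker, was at 0.68 ± 0.29, edgeR adjusted p = 0.143. The calls of Avil and Cd68 were lost without the low-count filter (0.0604 and 0.0678) and on leaving out any 1 of 6 libraries, where the adjusted p was 0.0651 to 0.137 for Avil and 0.0804 to 0.128 for Cd68. For Avil these were KO replicates 5, 7 and 8 and WT replicates 13, 15 and 16, and for Cd68 KO replicates 5, 7 and 8 and WT replicates 13, 14 and 16. The call of Cd68 was also lost with limma-voom (0.061).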

How the data were processed

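Messenger RNA of 8 organoid cultures was sequenced. The deposited table holds, per gene and library, whole-number counts as made by the authors, not normalized, and the authors' FPKM and TPM values, scaled for transcript length and depth. The submitters' processing notes name TopHat2, Bowtie2, TopHat, HTSeq and GRCm38, without versions or roles. Use of strand when counting is not stated there or in the labels. The value 2 was more frequent than 1 in the deposited counts (548 to 622 genes with 1 count and 673 to 772 with 2), so counting error may be larger than the counts give. Where a library has no count, the limit set by counting error alone is 3 counts, here 0.0606 to 0.0809 CPM.

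After filterByExpr and TMM scaling, counts went through the quasi-likelihood test in edgeR 4.0.16 (limma 3.58.1, R 4.3.3), KO against WT over all 8 libraries, with Benjamini-Hochberg adjustment over all 14945 tested genes and a threshold of 0.05. The SE is the log2 fold change divided by the square root of F, in size. TPM served only to compare levels between genes, and the deposited FPKM were not used. Promoter letters were searched with Python 3.11.15 and Biopython 1.88 in RefSeq windows of GRCm38.p6, transcripts were aligned with blastn 2.17.0, and gene positions are those of GRCm38. The test was checked on counts simulated from the real genes and library sizes. Tables and plots used pandas 2.3.3, numpy 2.4.6 and matplotlib 3.10.9.

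The members and gene lists were chosen with earlier results of these data known, so lists are described by counts and medians without a list test. The rule for named genes allows every kinesin, with library values for mitotic kinesins, other kinesins past the threshold and the 5 most abundant others. It takes up to 4 partners and 2 markers per list by adjusted p, or the 2 most abundant where none passed. Cenpe, Pcna, Numa1, Itgam, Cdc23, Pdzd11, Tubb4b and genes listed at 0 were named after their values were seen. Rows that the symbol rule leaves out were Kifap3 and Kif1bp, which encode no motor, the antisense gene Kif16bos and 3 pseudogenes with 0 counts. Alternatives were DESeq2 size factors, upper quartile and total-count scaling, the DESeq2 1.42.0 Wald test, limma-voom, other filters, a threshold of 0.01 and leaving out each library. A smooth on GC content and length (mgcv 1.9.3), over the 14050 tested genes with both, was added after seeing the data.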

Additional observations from a re-analysis of the deposited data

Results flagged for a closer look

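In a group of 4 libraries, a value was picked out when its gap to the nearest of the others, as a share of the group's range, exceeded Dixon's 95% critical value. Of 74 groups of kinesin values examined, 4 were, and chance picks about 1 in 20 groups. Kif11 stood at 64.2 CPM in KO replicate 7, above 58.6 to 59.2 CPM in the other KO libraries and below every WT library. Kif1b stood at 131 CPM in WT replicate 14, below 165 to 172 CPM in the other WT libraries. Kif27, with 9 to 31 counts per library, stood at 0.319 CPM in WT replicate 15, above 0.240 to 0.243 CPM in the other WT libraries. Kif9 stood at 3.07 CPM in KO replicate 6, above 2.87 to 2.89 CPM in the other KO libraries.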

How the results depend on the processing

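All 216 fitted log2 fold changes of the 12 mitotic kinesins over the 18 alternatives were negative, between -0.48 and -0.19. Between 9 and 12 mitotic kinesins were called lower and 0 higher, and leaving out 1 library gave 9 to 11. Kif18a was called with DESeq2 (adjusted p = 0.0356) and with the smooth on GC content and length (edgeR adjusted p = 0.0023), and Kif15 missed the threshold under all 3 other scalings (0.0503, 0.051 and 0.0513). With limma-voom and without the low-count filter both Kif14 (0.0599 and 0.0623) and Kif15 (0.0519 and 0.0867) missed it. Other kinesins called lower numbered 0 at a threshold of 0.01, 1 without the low-count filter, 1 with the stricter filter, 4 with the smooth (Kif12, Kif21b, Kif24 and Kifc5b) and 0 to 2 with 1 library left out. Other kinesins called higher numbered 1 with DESeq2 and 0 to 2 with 1 library left out (Kif27 without KO replicate 7, Kif16b and Kif5b without WT replicate 15). Over all tested genes, 597 were lower and 562 higher at 0.01, and with 1 library left out 724 to 1404 and 696 to 1386. The smooth raised calls over the whole table too. Of its 14050 genes, 1850 were lower and 1463 higher, against 1217 and 1142 for the same genes without it. Ift52, of intraflagellar transport, was called higher with the smooth (edgeR adjusted p = 0.0388). The medians with 1 library left out were -0.35 to -0.26 for mitotic kinesins and -0.022 to 0.037 for the others.

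Signs changed for the following genes, none of them called in the main test. Kif13b read 0.0018 with DESeq2 size factors, 0.0016 with upper quartile scaling, 0.0033 with library totals, 0.0029 without the filter, 0.001 with the stricter one and for genes of known GC content and length, 0.0019 with DESeq2 and 0.0016 with limma-voom, and -0.0395 to 0.028 with 1 library left out. Kif2a read -0.019 with the smooth, Ift46 -0.0494 to 0.0024 with 1 library left out, and Acta2, a muscle marker, 0.0012 with library totals and -0.29 to 0.45 with 1 left out. With 1 library left out, Kif21a read -0.11 to 0.022, Kif26b -0.053 to 0.36, Kif3a -0.0104 to 0.052, Kif5c -0.14 to 0.42, Numa1 -0.056 to 0.0047 and Pdzd11 -0.088 to 0.016. For the changed counts and signs the cause was not tested, except that a threshold of 0.01 is stricter. No paired analysis was possible because the genotypes share no replicate numbers. The 7 tested kinesins under 100 counts in every library had SEs of 0.28 to 0.87, too wide for changes the size of the mitotic ones to be detectable.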

Other observations

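Promoter letters and the genotype difference were set side by side over the table. Of the 194 tested protein-coding genes with both a CHR and a CCAAT box between 100 bases before and 50 after the start, 62 (32.0%) were lower in KO and 7 (3.61%) higher. Of all 10197 such genes with a window, 9.24% were lower, and of the 6825 with neither motif 7.90% were lower. The 194 include 6 mitotic kinesins and 9 of their partners, which were chosen with earlier results of these data known. In the wider window, 105 of 627 genes with both motifs (16.7%) were lower.

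For a few kinesins the authors' TPM and the deposited counts did not keep 1 ratio across libraries. The TPM of Kif21a ran from 10.2 to 23.3 while its CPM ran from 69.1 to 91.2, and the ratio of TPM to CPM differed 1.94-fold between libraries. That ratio differed 1.45-fold for Kif12, 1.36-fold for Kif9 and 1.33-fold for Kif24.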
